A study of Mus musculus with 8 samples.

Results

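Immediate early genes are genes whose transcription starts within minutes of neuronal activity and needs no new protein. The 35 genes described here, rapid and delayed activity-induced genes, were chosen by name from knowledge of their function. All 35 were found among the 39017 Ensembl genes counted in ribosome-bound RNA of hippocampal cells marked by Cck. The question was whether deletion of SMARCA3 in these cells goes with a different level of activity-induced RNA.

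Calcium entering an active neuron switches on kinases that phosphorylate transcription factors already present in the nucleus, such as CREB and SRF, and these start the transcription of the immediate early genes. Many of the products are themselves transcription factors, such as FOS, EGR1 and NPAS4, and others act at the synapse, such as ARC, or dampen the kinases, such as the DUSP phosphatases. In the hippocampus Fos, Arc and Egr1 RNA is widely used to mark recently active cells.

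RNA was obtained by translating ribosome affinity purification (TRAP), in which tagged ribosomes are pulled down with the RNA they carry. The 5 conditional knockout (cKO) libraries are from mice that carried a CCK cre driver, the L10-EGFP ribosomal tag and SMARCA3 fl/fl, the floxed gene now named Hltf. The 3 libraries of wild-type (WT) animals are from littermates with CCK cre and L10-EGFP but not homozygous for the floxed allele, so these controls carry the driver and the tag too, and whether they hold a single floxed copy is not stated. Each library pools 4 hippocampi, and age and sex were not given in the sources used here. Nothing states that the pools came from separate mice, so p-values measure the spread between these 8 pools, which may be partly technical. The tag and the deletion follow Cre wherever Cck is or was transcribed, which takes in a class of interneurons and also glutamatergic cells, and no RNA from before the pull-down was analysed here.

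The libraries held 31760155 to 61823651 counts. In CPM, counts scaled by TMM-adjusted library size, Hltf was at 5.10, 4.49, 4.21, 2.83 and 11.4 in cKO 1, 2, 3, 4 and the library labelled cKO 5, against 13.7, 8.39 and 9.87 in WT 1, 2 and 3 (log2 fold change -0.93, SE 0.39, adjusted p 0.558 by edgeR). The library labelled cKO 5 lies inside the WT range and goes against its label, and the exons deleted are not stated. That library stood apart on the first principal component (35.4% of variance) and cKO 4 on the next (23.5%), so results are given below with and without them. Cck averaged 661 ± 108 CPM in cKO (SD, n = 5) and 540 ± 112 CPM in WT (SD, n = 3). Slc17a7, a vesicular glutamate transporter, averaged 484 ± 44.7 CPM in cKO and 344 ± 17.9 CPM in WT, while Gad1, which makes GABA, averaged 35.3 ± 16 CPM in cKO and 34.2 ± 10.1 CPM in WT (SD, n = 5 and n = 3). The pull-downs thus held RNA of both glutamatergic and GABAergic neurons.

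The members spanned a wide range of levels, and Fos was among the lowest. Per kilobase of merged exons (RPKM), Egr1, a zinc-finger factor induced by activity and present at rest in forebrain neurons, was the highest member, at 67.2 ± 22.8 RPKM in cKO and 78.2 ± 18.8 RPKM in WT (SD, n = 5 and n = 3). Its mean RPKM over the 8 libraries was above that of 95.1% of all genes tested. Next came the nuclear receptor Nr4a2, at 34.5 ± 2.49 RPKM in cKO and 36.1 ± 2.0 RPKM in WT. The AP-1 subunit gene Jund and the nuclear receptor gene Nr4a3 followed at mean RPKM of 24.5 and 22.1 over all libraries, a difference within the spread of Jund (SD of 5.81 RPKM in cKO). Then came Dusp6 (15.4), Arc (12.8), Ier5 (10.7), Jun (10.3) and Dusp1 (10.1), all as mean RPKM over the 8 libraries. The last 4 of these 5 do not differ in level beyond their spread, and neither do Dusp6 and Arc (SD of 3.41 and 7.28 RPKM in cKO). Fos, the partner of JUN proteins in the AP-1 factor, lay at 0.356 ± 0.278 RPKM in cKO and 0.581 ± 0.114 RPKM in WT, above 17.1% of the genes tested. In counts, Fos (ENSMUSG00000021250, chromosome 12, 85473890 to 85477273) had 40, 94, 48, 3 and 13 in cKO 1, 2, 3, 4 and the library labelled cKO 5, against 60, 72 and 52 in WT 1, 2 and 3. The 3 counts of cKO 4 give 0.0648 CPM, with an exact Poisson interval of 0.0134 to 0.189 CPM that covers counting error only. Egr1, Nr4a2 and Nr4a3 together held 50.3 to 55.2% of the members' summed CPM in cKO libraries and 52.2 to 55.7% in WT libraries. Klf4, Atf3 and Maff, which encode transcription factors, had too few counts to be tested, with 0 to 4, 0 to 19 and 0 to 42 counts per library. Lengths are those of all annotated exons merged, so an RPKM is low where the shorter isoforms prevail.

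**Figure D1:**
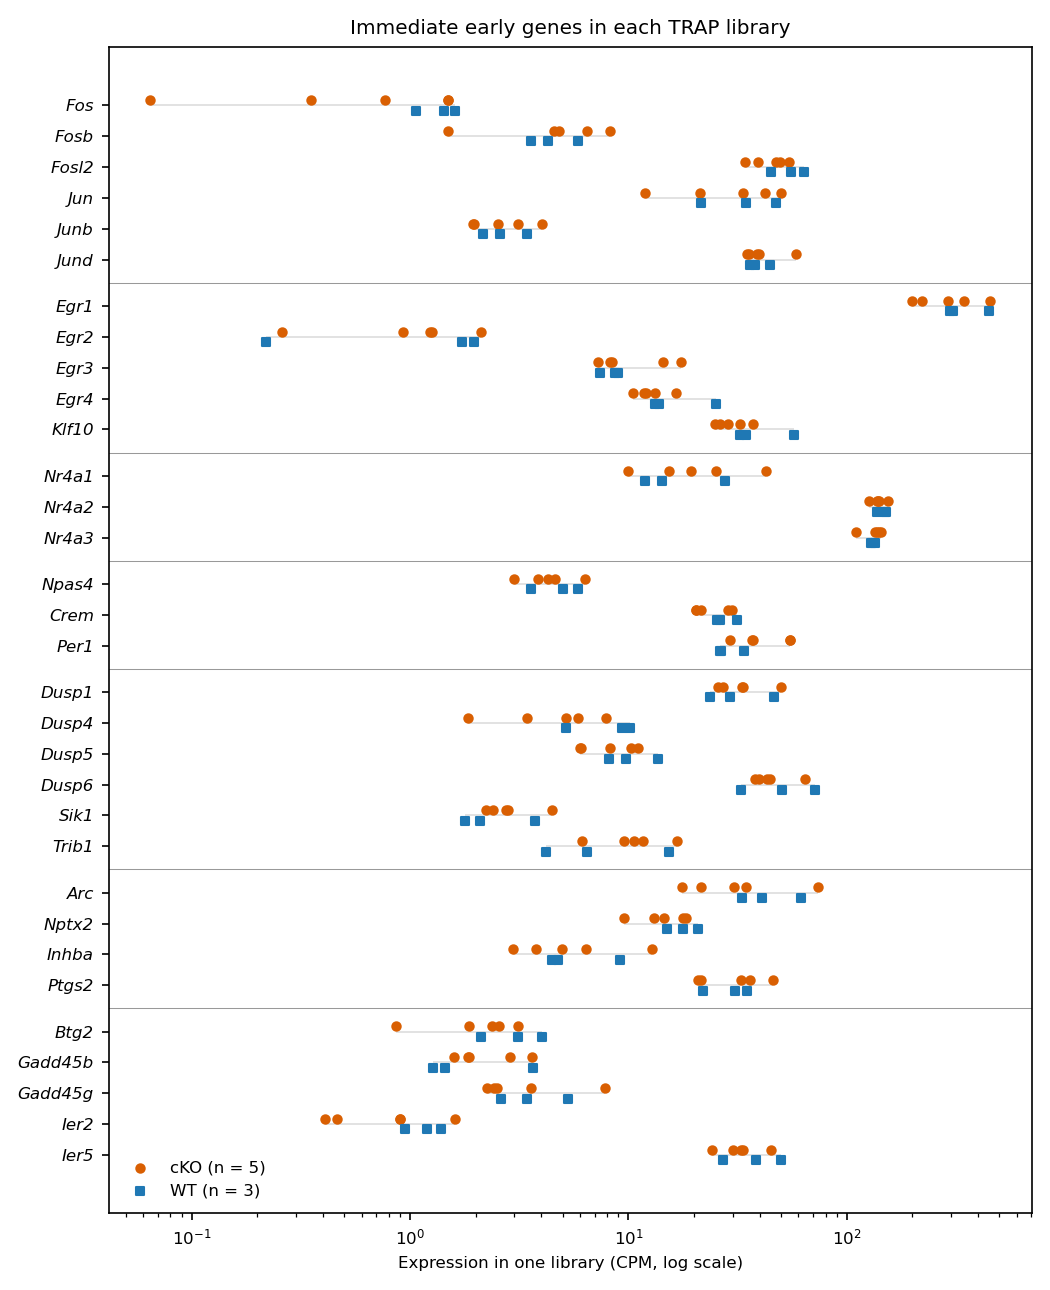
CPM of the 32 tested members in each library on a log axis, in rows grouped by role, with cKO libraries (orange circles, n = 5) above WT libraries (blue squares, n = 3) in each row. The groups overlap in all 32 rows, and Egr1, Nr4a2 and Nr4a3 lie highest.

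Promoters are shown for 5 members that stand for the patterns described below: Fos, Npas4, Nr4a1, Nr4a2 and Jun. Each is the 250 bases before the RefSeq start on GRCm38.p6, and capitals mark the motif TGACG, the core of the CREB binding site, on either strand, or GCGGGGGCG, a binding site of EGR factors.
Fos, chr12:85473640-85473889, plus strand: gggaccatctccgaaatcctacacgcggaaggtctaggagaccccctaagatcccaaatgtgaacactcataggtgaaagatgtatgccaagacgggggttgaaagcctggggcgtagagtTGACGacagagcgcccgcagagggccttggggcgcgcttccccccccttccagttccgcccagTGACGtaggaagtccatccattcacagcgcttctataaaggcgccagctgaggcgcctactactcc
Npas4, chr19:4989972-4990221, minus strand: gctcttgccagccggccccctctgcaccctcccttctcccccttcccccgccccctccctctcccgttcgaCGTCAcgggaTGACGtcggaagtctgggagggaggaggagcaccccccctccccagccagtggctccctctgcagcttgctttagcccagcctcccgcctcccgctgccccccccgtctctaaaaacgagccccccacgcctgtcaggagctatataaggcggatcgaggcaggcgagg
Nr4a1, chr15:101266596-101266845, plus strand: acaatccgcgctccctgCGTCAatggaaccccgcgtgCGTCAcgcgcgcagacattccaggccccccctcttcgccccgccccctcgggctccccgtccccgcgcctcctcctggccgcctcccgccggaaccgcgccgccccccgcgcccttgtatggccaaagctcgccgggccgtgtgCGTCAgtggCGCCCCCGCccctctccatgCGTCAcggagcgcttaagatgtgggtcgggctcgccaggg
Nr4a2, chr2:57124004-57124253, minus strand: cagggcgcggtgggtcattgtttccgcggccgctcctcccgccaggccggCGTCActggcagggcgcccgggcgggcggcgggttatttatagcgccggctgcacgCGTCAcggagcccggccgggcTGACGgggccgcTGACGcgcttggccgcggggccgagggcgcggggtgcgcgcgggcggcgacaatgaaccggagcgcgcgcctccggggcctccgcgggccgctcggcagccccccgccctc
Jun, chr4:95052223-95052472, minus strand: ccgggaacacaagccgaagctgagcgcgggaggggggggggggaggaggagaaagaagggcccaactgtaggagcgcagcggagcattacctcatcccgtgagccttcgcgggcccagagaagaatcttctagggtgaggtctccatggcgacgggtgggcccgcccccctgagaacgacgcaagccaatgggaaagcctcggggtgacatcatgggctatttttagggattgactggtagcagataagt
The Fos promoter holds TGACG at 2 places, with 61 and 124 bases between the motif and the start. Npas4 also holds 2 copies, Nr4a1 and Nr4a2 hold 4 each, and Jun holds none in this window. Of the members, 25 matched the RefSeq promoter table, and for genes with several starts any of them was counted. Arc and Egr1 were not among the 25, and sites beyond the 250 bases were not searched. TGACG, searched on both strands, was found for 16 of these 25 (64%), against 19.8% of 27025 genes with a promoter there. The full palindrome TGACGTCA, which contains TGACG on both strands, was found for 3 of 25 (12%), Maff, Dusp1 and Btg2, against 1.77% of all. The CArG box, the SRF binding site, was found for Egr2 and Dusp5 (8% against 1.62%), and GCGGGGGCG for Fosb, Fosl2, Klf4 and Nr4a1 (16% against 2.93%). The AP-1 site TGANTCA was in none of the 25, against 7.82% of all. A match describes these letters only and is not evidence of binding.

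With all 8 libraries, no member was called higher or lower in cKO. By edgeR's quasi-likelihood test with Benjamini-Hochberg adjustment over 17654 genes, 0 of 32 members tested were higher and 0 lower at an adjusted p under 0.05, where 0% of all genes were called in either direction. The smallest adjusted p of a member was 0.532. DESeq2 gave an adjusted p for 22 members and called none, the smallest being 0.215, where it called 0.789% of genes higher and 0.523% lower. By limma-voom the smallest adjusted p was 0.288. At an unadjusted p under 0.05 edgeR had 1 member higher (5.02% of all genes) and 1 lower (3.7%), that is 2 in either direction (8.72%), and limma-voom 1 higher (6.24%) and 3 lower (6.51%). The groups overlapped in all 32 members, while they did not overlap in 3.38% of all genes with cKO higher and 3.82% with cKO lower, 7.19% in all. The median log2 fold change was -0.12 over the 32 members and 0.02 over all genes, with 20 members below 0 and 12 above. Without WT 1 the members' median was -0.02, with 17 below 0 and 15 above. A p that misses the threshold does not show equal levels: standard errors of the log2 fold changes ran from 0.10 for Nr4a2 to 0.78 for Fos.

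**Figure D2:**
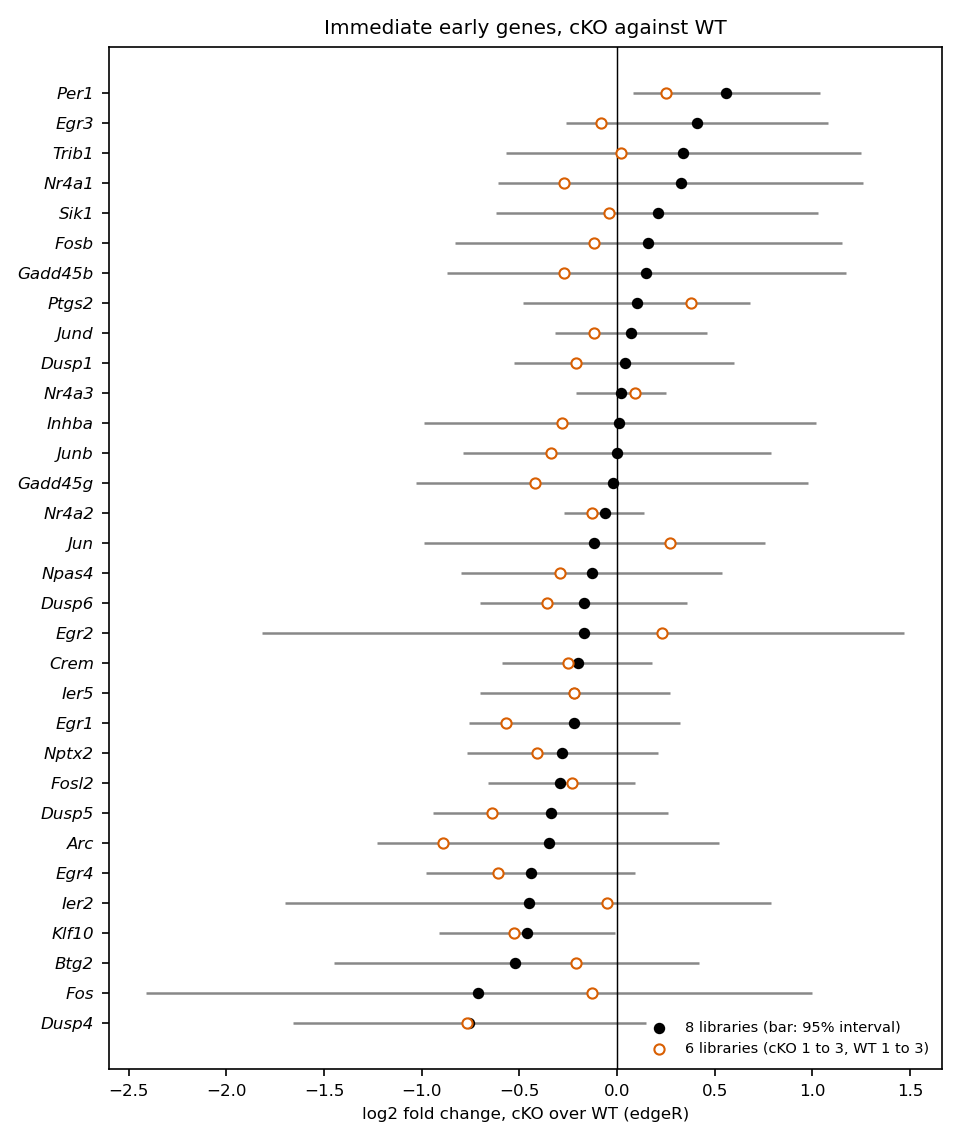
log2 fold change of cKO over WT for the 32 tested members, sorted. Black points and bars give the edgeR estimate and 95% interval over 8 libraries, and open circles give the estimate over 6 libraries (cKO 1 to 3 and WT 1 to 3); the bars of all members but Per1 and Klf10 cross 0, and the open circles of 26 members lie below 0.

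Per1, a clock gene whose promoter answers to cAMP, was the member higher at an unadjusted p under 0.05. Per1 (ENSMUSG00000020893, chromosome 11, 69095217 to 69109960) was at 29.2, 36.9, 37.2, 54.9 and 55.1 CPM in cKO 1, 2, 3, 4 and the library labelled cKO 5, against 33.8, 26.6 and 26.3 CPM in WT 1, 2 and 3. cKO 4 and the library labelled cKO 5 held the highest values, and cKO 1 lay inside the WT range. The log2 fold change was 0.56 (SE 0.22, 95% interval 0.08 to 1.04), with an edgeR p of 0.0256, an adjusted p of 0.532 and an exact permutation p of 0.0893. Over cKO 1 to 3 and WT 1 to 3 the log2 fold change of Per1 was 0.25 (SE 0.16) with an edgeR p of 0.146, and without the library labelled cKO 5 alone the p was 0.0519.

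Klf10, a zinc-finger factor also induced by TGF-beta, was the member lower at an unadjusted p under 0.05. Klf10 stood at 32.3, 28.5, 24.9, 37.4 and 26.4 CPM in cKO 1, 2, 3, 4 and the library labelled cKO 5, against 57.1, 34.4 and 32.3 CPM in WT 1, 2 and 3. WT 1 stood above all others, and WT 2 and 3 lay within the cKO range. The log2 fold change of Klf10 was -0.46 (SE 0.20), with an edgeR p of 0.0452, an adjusted p of 0.565 and an exact permutation p of 0.107. Without WT 1 it was -0.16.

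Among the effectors, Arc, which promotes the internalisation of AMPA receptors at the synapse, had its highest value in the library labelled cKO 5 and its lowest in cKO 2. Arc (ENSMUSG00000022602, chromosome 15, 74669083 to 74672570, mm10) was at 21.6, 17.6, 34.4, 30.4 and 73.5 CPM in cKO 1, 2, 3, 4 and the library labelled cKO 5, against 61.9, 41.0 and 33.2 CPM in WT 1, 2 and 3. The library labelled cKO 5 was above every WT library, while cKO 1, 2 and 4 were below all 3 of them. The log2 fold change of Arc over 8 libraries was -0.35 (SE 0.40, 95% interval -1.23 to 0.52; edgeR adjusted p 0.857), with an exact permutation p of 0.357. Without the library labelled cKO 5 it was -0.81 (SE 0.26), p 0.00944 and adjusted p 0.490 by edgeR, and without WT 1 it was -0.07. The neuronal pentraxin Nptx2, which gathers AMPA receptors at synapses on interneurons, ranged from 9.57 to 18.3 CPM in cKO and from 15.0 to 20.8 CPM in WT. Inhba, which encodes an activin subunit, ranged from 2.96 to 12.8 CPM in cKO and from 4.47 to 9.17 CPM in WT.

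Of the zinc-finger factors, Egr1 (ENSMUSG00000038418, chromosome 18, 34859823 to 34864984) was at 222, 198, 292, 343 and 453 CPM in cKO 1, 2, 3, 4 and the library labelled cKO 5, against 448, 306 and 297 CPM in WT 1, 2 and 3. cKO 1, 2 and 3 lay below all WT libraries, and the library labelled cKO 5 lay above them. The log2 fold change of Egr1 was -0.22 (SE 0.25, 95% interval -0.76 to 0.32), with adjusted p 0.858 by edgeR and an exact permutation p of 0.5. It was -0.0021 without WT 1 and -0.41 without the library labelled cKO 5. Egr3 reached 14.4 CPM in cKO 4 and 17.4 CPM in the library labelled cKO 5, against at most 9.01 CPM in WT, and its log2 fold change was 0.41 (SE 0.31, adjusted p 0.752 by edgeR). Egr4 ranged from 10.5 to 16.5 CPM in cKO and from 13.2 to 25.3 CPM in WT, with WT 1 far above the rest and a log2 fold change of -0.44, which was -0.08 without WT 1. Egr2, at 0.259 to 2.12 CPM in cKO and 0.219 to 1.97 CPM in WT, was too low for its direction to be read.

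Of the AP-1 genes, Jund was at 34.9, 39.0, 35.6, 39.8 and 58.5 CPM in cKO 1, 2, 3, 4 and the library labelled cKO 5, against 44.5, 36.1 and 38.1 CPM in WT 1, 2 and 3. The library labelled cKO 5 was the highest, and the other 7 lay between 34.9 and 44.5 CPM. Fos was at 0.766, 1.5, 1.5, 0.0648 and 0.353 CPM in cKO 1, 2, 3, 4 and the library labelled cKO 5, against 1.6, 1.43 and 1.07 CPM in WT 1, 2 and 3. The Fos values of cKO 4 and the library labelled cKO 5 were the lowest, those of cKO 2 and 3 lay within the WT range, and the log2 fold change was -0.71 (SE 0.78, 95% interval -2.41 to 1.0, adjusted p 0.851 by edgeR, exact permutation p 0.25). Over the 6 libraries cKO 1 to 3 and WT 1 to 3 it was -0.13 (SE 0.46), and with 1 library left out it ran from -1.03 to -0.41. Fosl2, a slower FOS relative, ranged from 34.2 to 54.3 CPM in cKO and from 45.0 to 63.8 CPM in WT, and Fosb from 1.49 to 8.23 CPM in cKO and from 3.57 to 5.85 CPM in WT. Log2 fold changes were 0.07 (SE 0.18) for Jund, -0.29 for Fosl2 and 0.16 (SE 0.45) for Fosb. Junb averaged 2.72 ± 0.872 CPM in cKO and 2.72 ± 0.646 CPM in WT (SD, n = 5 and n = 3). It shares its locus with Prdx2 on the opposite strand (6940 to 12847 counts per library), and since the strand setting of the counting is not stated, reads of the overlap cannot be assigned.

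The nuclear receptor genes Nr4a2 and Nr4a3 had the most even levels of all members. Nr4a2 was at 139, 127, 137, 141 and 155 CPM in cKO 1, 2, 3, 4 and the library labelled cKO 5, against 152, 137 and 150 CPM in WT 1, 2 and 3. All WT values lay within the cKO range, and the 95% interval of the log2 fold change was -0.27 to 0.14. Nr4a3 was at 143, 141, 137, 110 and 135 CPM in cKO 1, 2, 3, 4 and the library labelled cKO 5, against 129, 130 and 135 CPM in WT 1, 2 and 3, with a 95% interval of -0.21 to 0.25 (log2). Nr4a1, the member of that family most used as an activity marker, was at 9.96, 15.4, 19.4, 25.3 and 42.7 CPM in cKO 1, 2, 3, 4 and the library labelled cKO 5, against 27.7, 14.3 and 11.9 CPM in WT 1, 2 and 3. The highest Nr4a1 value was thus 4.29 times the lowest, against 1.22 times for Nr4a2 and 1.30 times for Nr4a3. Nr4a1, Nr4a2 and Nr4a3 each hold 4 TGACG copies in the 250 bases searched, and of these genes Nr4a1 alone also holds GCGGGGGCG. Whether these motifs bear on the spread was not tested. The groups overlapped for all 3 receptors, and the log2 fold change of Nr4a1 was 0.33 (SE 0.42, adjusted p 0.877 by edgeR).

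Npas4 (ENSMUSG00000045903, chromosome 19, 4984355 to 4990316), a factor induced by calcium entry in neurons, was at 4.29, 3.0, 4.61, 3.84 and 6.30 CPM in cKO 1, 2, 3, 4 and the library labelled cKO 5, against 5.0, 5.86 and 3.57 CPM in WT 1, 2 and 3. The groups overlapped throughout, and the log2 fold change was -0.13 (SE 0.30, 95% interval -0.80 to 0.54; edgeR adjusted p 0.941; exact permutation p 0.625). Crem, which also encodes the inducible repressor ICER of CREB targets, ranged from 20.3 to 29.7 CPM in cKO and from 25.5 to 31.3 CPM in WT.

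Of the feedback regulators, Dusp6, a phosphatase of ERK kinases, was at 43.1, 38.0, 39.7, 44.5 and 64.5 CPM in cKO 1, 2, 3, 4 and the library labelled cKO 5, against 71.5, 50.6 and 32.9 CPM in WT 1, 2 and 3. WT 1 and the library labelled cKO 5 were the highest. Sik1, a kinase that restrains CREB coactivators, was at 2.22, 2.80, 2.40, 4.47 and 2.74 CPM in cKO 1, 2, 3, 4 and the library labelled cKO 5, against 1.78, 3.73 and 2.10 CPM in WT 1, 2 and 3. The largest difference of this group was that of Dusp4, which ranged from 1.85 to 7.90 CPM in cKO and from 5.17 to 10.2 CPM in WT, with a log2 fold change of -0.76 (SE 0.41, adjusted p 0.638 by edgeR). Log2 fold changes were -0.17 (SE 0.24) for Dusp6, 0.21 (SE 0.38) for Sik1, 0.04 for Dusp1, -0.34 for Dusp5 and 0.34 for the pseudokinase gene Trib1. WT 1 and WT 2 move the last: the log2 fold change of Trib1 was 1.04 without WT 1 (adjusted p 0.890 by edgeR) and 0.0023 without WT 2, and that of Dusp5 was -0.10 without WT 1. Dusp1 overlaps Ergic1 on the opposite strand, so its counts carry the same uncertainty as those of Junb.

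Of the growth arrest and early-response factors, Ier5 was at 45.0, 24.1, 30.2, 32.7 and 33.6 CPM in cKO 1, 2, 3, 4 and the library labelled cKO 5, against 49.9, 38.5 and 27.2 CPM in WT 1, 2 and 3. Gadd45g was at 2.43, 2.49, 3.59, 2.25 and 7.82 CPM in cKO 1, 2, 3, 4 and the library labelled cKO 5, against 3.43, 5.28 and 2.6 CPM in WT 1, 2 and 3. In neither gene did the groups separate, and log2 fold changes were -0.22 for Ier5 and -0.02 for Gadd45g. Btg2, Gadd45b and Ier2 had log2 fold changes of -0.52, 0.15 and -0.45, with standard errors of 0.43 to 0.57.

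The 6 libraries whose numbers occur in both groups, cKO 1 to 3 and WT 1 to 3, leave out both libraries that stood apart. Over these, 0 members were called higher and 0 lower by edgeR (0.0288% of all genes in each direction). At an unadjusted p under 0.05, 6 of 32 members were lower in cKO, against 4.94% of all genes, and 0 were higher, against 4.45%. The 6 were Arc, Egr1, Egr4, Klf10, Dusp4 and Dusp5. Log2 fold changes were -0.89 (SE 0.26, p 0.00603) for Arc, -0.57 (SE 0.17, p 0.00700) for Egr1 and -0.61 (SE 0.24, p 0.0287) for Egr4 by edgeR, and -0.53 to -0.77 for Klf10, Dusp4 and Dusp5. None passed after Benjamini-Hochberg adjustment, the smallest adjusted p being 0.413. The log2 fold change was below 0 in 26 of the 32 members, against 49.5% of all genes, and above 0 in 6, against 50.5%. The groups did not overlap in Egr1 and Egr4, both lower (7.51% of all genes), and in Nr4a3, higher (7.57%). WT 1 weighs on these values: with WT 1 also left out, 19 of 32 members lay below 0, and the log2 fold changes were -0.61 (SE 0.25, p 0.0332) for Arc, -0.36 (SE 0.15, p 0.0388) for Egr1 and -0.25 (SE 0.19, p 0.220) for Egr4 by edgeR. In that fit 2 members were lower at an unadjusted p under 0.05, Arc and Egr1 (3.59% of all genes), and 2 were higher (3.76%), Trib1 at 0.72 (p 0.0413 by edgeR) and Per1 at 0.37 (p 0.0484 by edgeR). Without the library labelled cKO 5 alone, Arc was the member lower at an unadjusted p under 0.05 (4.3% of all genes) and none was higher (4.47%). Without cKO 4 alone, 3 members had an unadjusted edgeR p under 0.05 (8.08% of all genes in either direction). These were Dusp4, Klf10 and Egr4, and Per1 was not among them.

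Within each genotype the members' median spread was above that of all genes. Among the 31 members with a mean CPM of at least 1, the median SD of log2 CPM was 0.44 in cKO and 0.44 in WT, against 0.31 in cKO and 0.19 in WT over 14629 genes with that mean. WT 1 held the highest value of 12 of the 31 members, against 11.8% of all genes, and the library labelled cKO 5 held that of 12 others, against 23.7%. cKO 2 held the lowest value of 10 of 31, against 10.2% of all genes. Both of the highest values lay in WT 1 and the library labelled cKO 5 for 11 of 31 members (35.5%), against 4.35% of all genes. These were Arc, Nptx2, Inhba, Egr1, Nr4a1, Nr4a2, Jund, Dusp5, Dusp6, Trib1 and Gadd45b. The pair of libraries was picked after the values were seen, so the shares are a description. The members' summed CPM was 1002, 911, 1046, 1132 and 1346 in cKO 1, 2, 3, 4 and the library labelled cKO 5, against 1396, 1086 and 1045 in WT 1, 2 and 3.

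**Figure D3:**
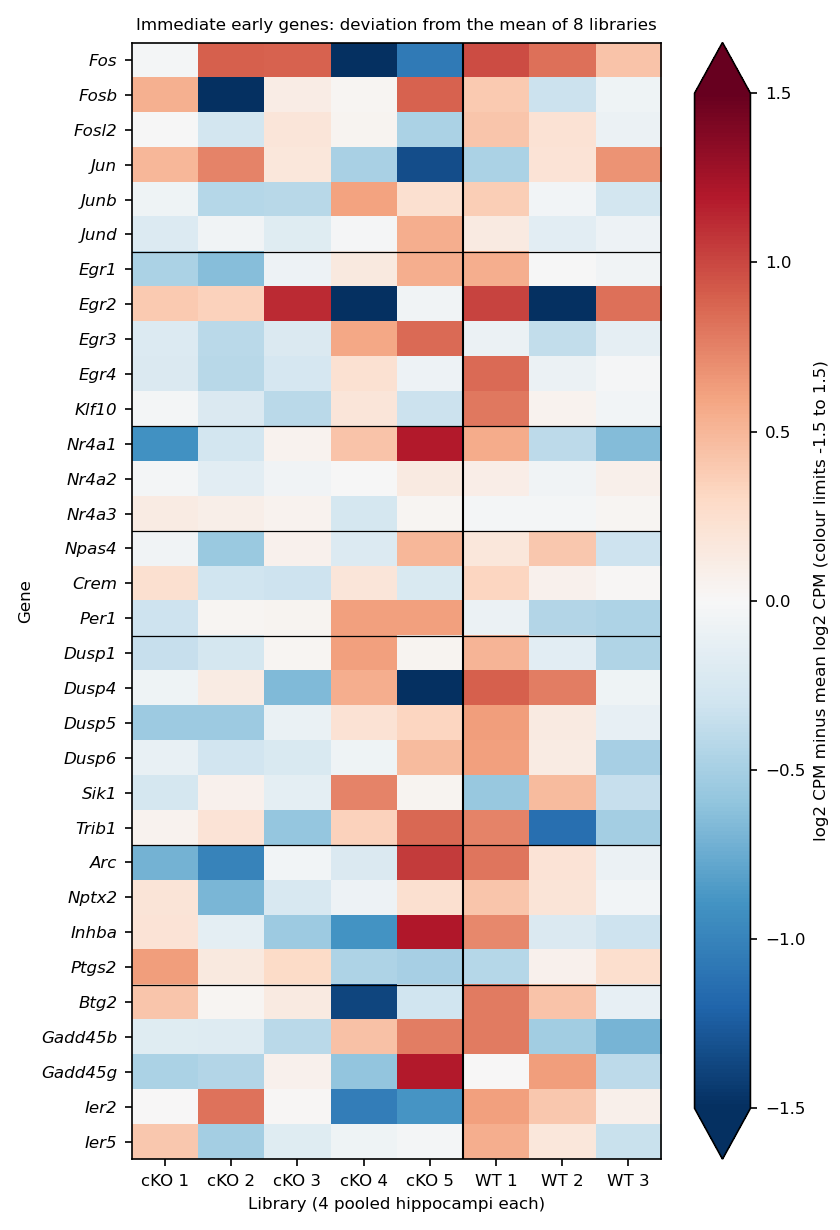
log2 CPM of each tested member minus its mean over the 8 libraries (colour), with cKO libraries left of the line and WT libraries right of it. WT 1 and the library labelled cKO 5 are red for Arc, Egr1, Nr4a1, Inhba and Trib1, while Jun and Ptgs2 are blue in cKO 4, the library labelled cKO 5 and WT 1.

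Over the 8 libraries the levels of Arc and Egr1 varied together. Their log2 CPM had a Pearson r of 0.95 (exact permutation p 0.0025, adjusted over 6 pairs 0.015) and a Spearman rho of 0.83 (exact p 0.0154, adjusted 0.0461), and r was 0.90 once cKO 2 and the library labelled cKO 5, farthest from the median of Arc, were left out. Arc and Npas4 had an r of 0.81 (exact p 0.0143, adjusted 0.0428) and a rho of 0.88 (exact p 0.00724, adjusted 0.0435), but r was 0.51 without the same 2 libraries, so that relation rests on them. Egr1 and Npas4 had an r of 0.68 (exact p 0.0625, adjusted 0.125) and a rho of 0.69 (exact p 0.0694, adjusted 0.139), and r was 0.21 without those 2. The r of Fos was -0.07 with Arc, -0.29 with Egr1 and 0.00 with Npas4 (exact p 0.876, 0.505 and 0.992; adjusted 0.758 to 0.992). Its rho was 0.05, -0.29 and -0.07 in the same order (exact p 0.935, 0.501 and 0.882; adjusted 0.751 to 0.935). Its r was 0.44, 0.43 and 0.17 once cKO 4 and the library labelled cKO 5, farthest from the median of Fos, were left out. The libraries share their normalisation, and Fos rests on 3 to 94 counts per library.

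Jun and Ptgs2 were low in WT 1 and the library labelled cKO 5, where Arc and Egr1 were highest. Jun, the main partner of FOS, was at 42.4, 49.9, 33.6, 21.3 and 11.9 CPM in cKO 1, 2, 3, 4 and the library labelled cKO 5, against 21.5, 34.6 and 47.5 CPM in WT 1, 2 and 3. Ptgs2, the inducible cyclooxygenase COX-2, was at 45.8, 32.9, 36.2, 21.5 and 20.9 CPM in cKO 1, 2, 3, 4 and the library labelled cKO 5, against 21.9, 30.9 and 35 CPM in WT 1, 2 and 3. cKO 4, the library labelled cKO 5 and WT 1 held the 3 lowest values of both genes. This was so for 2 of 31 members (6.45%), near the 4.36% of all genes, so it does not set the members apart. The 2 genes and the 3 libraries were picked after the values were seen, so the shares are a description. Log2 fold changes over 8 libraries were -0.12 (SE 0.40) for Jun and 0.10 for Ptgs2. Markers of dentate granule cells, the principal neurons of the dentate gyrus, were among those lowest in the same libraries. Their summed CPM over 10 genes was 728, 709, 604, 289 and 316 in cKO 1, 2, 3, 4 and the library labelled cKO 5, against 361, 517 and 795 in WT 1, 2 and 3. Prox1, the factor that specifies these cells, was at 166, 187, 155, 37.9 and 46.5 CPM in cKO 1, 2, 3, 4 and the library labelled cKO 5, against 43.1, 97.0 and 178 CPM in WT 1, 2 and 3. Of the 10 markers, 6 had their 3 lowest values in those libraries: Prox1, C1ql2, Dsp, Stxbp6, Plk5 and Rfx3. Summed CPM of the GABAergic, vessel and microglia lists was also lowest in these 3 libraries, but most GABAergic genes did not follow singly. Among markers that averaged 1 CPM or more, 1 of 9 GABAergic genes, Gad1, had its 3 lowest values there. The same held for 1 of 1 vessel genes, Rgs5, and 0 of 1 microglia genes. GABAergic genes summed to 158 CPM in cKO 4, 178 CPM in the library labelled cKO 5 and 188 CPM in WT 1, against 196 to 243 CPM in the other libraries. Vessel genes summed to 30.0, 22.7 and 54.8 CPM in the same 3, against 60.7 to 87.4 CPM in the others. Most of that sum was 1 gene, Rgs5, at 27.2, 18.3 and 52.9 CPM in the same 3, against 58.1 to 82.4 CPM. Microglia genes summed to 2.68, 2.23 and 4.44 CPM there, against 5.09 to 7.43 CPM in the others. The part of this marker RNA in the levels of Jun, Ptgs2, Arc or Egr1 was not tested, and in pooled tissue fewer cells of a type and less RNA per cell cannot be told apart.

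**Figure D4:**
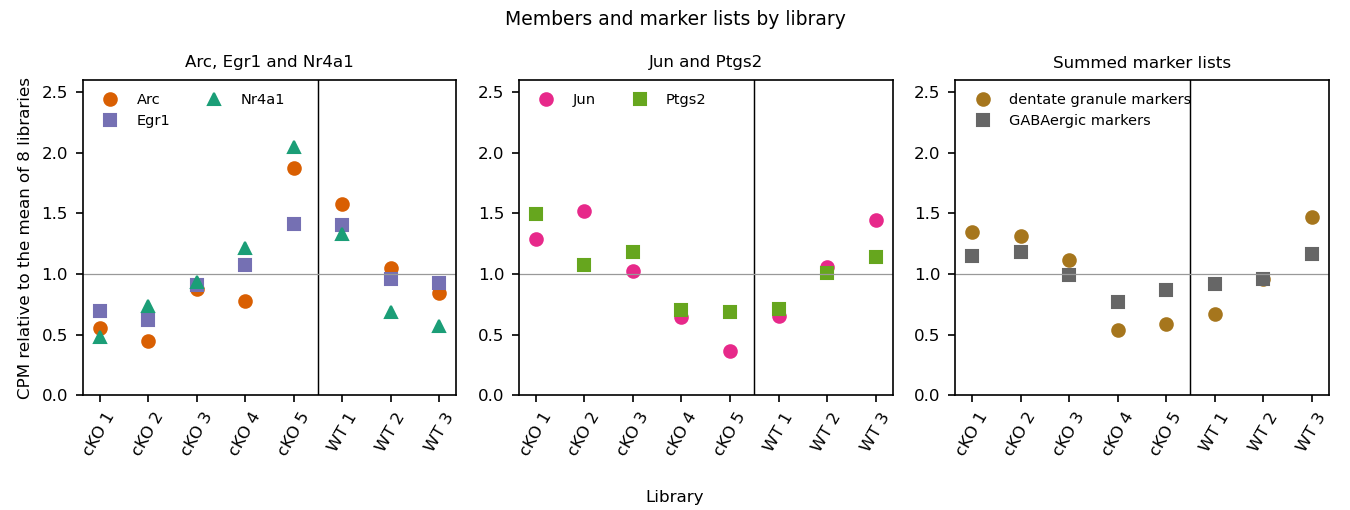
CPM of each gene (left and middle panels) and summed CPM of 2 marker lists (right panel), divided by the mean over the 8 libraries, with cKO libraries left of the line and WT libraries right of it. Arc, Egr1 and Nr4a1 lie above their mean in the library labelled cKO 5 and WT 1, while Jun, Ptgs2 and the dentate granule markers lie below theirs there and in cKO 4.

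Markers of other cells were measured beside these results, as summed CPM per list. No marker was at 0 in all libraries. The 11 oligodendrocyte genes summed to 84.9 to 110 CPM in cKO and 72.7 to 77.9 CPM in WT, and 6 genes of their precursors to 5.72 to 9.10 CPM in cKO and 3.32 to 4.23 CPM in WT, without overlap. At an unadjusted p under 0.05 by edgeR, 3 of the 11 and 2 of the 6 were higher, against 5.02% of all genes. The other lists overlapped between the groups. Astrocyte genes summed to 337 to 507 CPM in cKO and 330 to 439 CPM in WT, microglia genes to 2.23 to 6.07 CPM in cKO and 4.44 to 7.43 CPM in WT, and vessel genes to 22.7 to 87.4 CPM in cKO and 54.8 to 72.8 CPM in WT. Among neurons, GABAergic genes summed to 158 to 243 CPM in cKO and 188 to 239 CPM in WT, glutamatergic genes to 10553 to 16830 CPM in cKO and 10106 to 10774 CPM in WT, and CCK interneuron genes to 813 to 1079 CPM in cKO and 661 to 869 CPM in WT. In several lists 1 gene made up most of the sum. Over the 8 libraries, Slc1a2 of the astrocyte list was at 300 to 478 CPM and Rgs5 of the vessel list at 18.3 to 82.4 CPM. Camk2a of the glutamatergic list was at 5930 to 10057 CPM and Cck at 415 to 837 CPM. Of the 10 glutamatergic genes, 3 were higher at an unadjusted p under 0.05 (5.02% of all genes) without overlap between the groups (3.38%): Slc17a7, Cpne6 and Camk2a, with log2 fold changes of 0.49 (SE 0.10), 0.36 (SE 0.10) and 0.32 (SE 0.14). DESeq2 called Slc17a7 of these (adjusted p 0.00395), and edgeR none (adjusted p 0.470 to 0.562). Their part in the members' levels was not tested. Heat shock and handling stress genes had 0 of 12 at an unadjusted p under 0.05 by edgeR (8.72% of all genes) and 0 called by edgeR or DESeq2, with a median log2 fold change of -0.01. Of these, Bag3 had 0.55 (SE 0.45), Dnajb1 -0.16 (SE 0.14) and Hspa5 0.37 (SE 0.34), the last with 205 CPM in cKO 1.

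Other genes of the response were read from the same fit, and none passed the edgeR adjustment. Of 33 further activity-regulated genes tested, 0 were called. Their median log2 fold change was -0.08. At an unadjusted p under 0.05 by edgeR, 4 genes were lower (3.7% of all genes) and 0 higher (5.02%). Rgs2, an inhibitor of G protein signalling induced by activity, was at 135, 119, 125, 127 and 123 CPM in cKO 1, 2, 3, 4 and the library labelled cKO 5, against 216, 168 and 149 CPM in WT 1, 2 and 3. All 5 cKO libraries lay below all 3 WT libraries. The log2 fold change of Rgs2 was -0.50 (SE 0.12), adjusted p 0.480 by edgeR, with an exact permutation p of 0.0179, the smallest these libraries allow, and DESeq2 called it (adjusted p 0.0305). Without WT 1 the log2 fold change of Rgs2 was -0.33. Rheb, a GTPase that activates mTOR, averaged 136 ± 17.7 CPM in cKO and 186 ± 17.7 CPM in WT (SD, n = 5 and n = 3), a log2 fold change of -0.45 (SE 0.12; adjusted p 0.480 by edgeR and 0.0516 by DESeq2). Tiparp was at -0.72 (SE 0.28, adjusted p 0.533 by edgeR).

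Of 38 kinases, cofactors and constitutive factors upstream of the immediate early genes, 0 were called by edgeR or DESeq2, with a median log2 fold change of -0.01. Unadjusted p by edgeR fell under 0.05 for 5 higher genes (5.02% of all genes) and 2 lower genes (3.7%). Prkaca, the catalytic subunit of protein kinase A, averaged 268 ± 40.6 CPM in cKO and 197 ± 6.51 CPM in WT (SD, n = 5 and n = 3), a log2 fold change of 0.44 (SE 0.13; edgeR adjusted p 0.499). Camk2b, a calcium-dependent kinase, was at 0.25 (SE 0.08) and Camkk2, which activates other such kinases, at -0.27 (SE 0.09), each with an edgeR adjusted p of 0.499 and no overlap between the groups. Of 33 family relatives of the members, edgeR called 0, and the median log2 fold change was 0.03. At an unadjusted p under 0.05 by edgeR, 2 were higher (5.02% of all genes) and 2 lower (3.7%). Dusp26, a phosphatase of the DUSP family, averaged 25.8 ± 5.71 CPM in cKO and 41.5 ± 5.09 CPM in WT (SD, n = 5 and n = 3), with a log2 fold change of -0.69 (SE 0.19), an edgeR adjusted p of 0.499 and a DESeq2 adjusted p of 0.0487. Atf4, a stress-responsive relative of CREB, was at -0.30 (SE 0.10) and Nptxr, the receptor-like pentraxin, at 0.30 (SE 0.10), without overlap and each with an edgeR adjusted p of 0.499.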

How the data were processed

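The deposited values are raw counts per Ensembl gene, 1 column per library. Per the submitters' processing notes the authors used STAR 2.5.3a, HTSeq and the build mm10; the annotation release, strand setting and filters are not given in the sources used here. Library totals ran from 31760155 to 61823651, and low counts limit Fos, Egr2, Ier2 and the untested members. Symbols, positions and merged exon lengths came from GENCODE vM21 (37607 genes, 96.4%, with a symbol), promoters from RefSeq.

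Counts were tested in R 4.3.3 with edgeR 4.0.16 (TMM, filterByExpr, robust quasi-likelihood, two-sided, all 8 libraries, no covariate), with Benjamini-Hochberg adjustment over 17654 genes and a threshold of 0.05. SE is the log2 fold change divided by the root of F. Exact permutation tests of mean log2 CPM (prior count 2) were two-sided over 56 splits, with 0.0179 the smallest p possible. Alternatives were other scalings and filters, non-robust dispersions, DESeq2 1.42.0, limma 3.58.1 voom, each library left out, and 6 libraries with or without the library number as a block. The steps were tested on simulated data. Figures used Python 3.11.15 and matplotlib 3.10.9.

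All members are named; values in every library are given for Fos, Arc, Egr1 and Npas4, the highest per kilobase in each role, members with an unadjusted p under 0.05 or separate groups, and members with a library far from its group; Jun, Ptgs2 and Nr4a1 were added after their values were seen. Of each pathway list the 3 genes with the smallest p are named. The members and lists were chosen with earlier results of these data known.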

Additional observations from a re-analysis of the deposited data

Results flagged for a closer look

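In 6 of 33 genes examined (the 32 tested members and Hltf), 1 of the 5 cKO libraries lay so far from the other 4 that the gap exceeded 0.71 of the group's whole range. For normally distributed values of exchangeable libraries, chance alone gives about 1 in 20, here 1.6. CPM need not be so distributed, and the share over all genes was itself above 1 in 20. The share was 18.2% of these genes, against 9.17% of all genes tested. The library labelled cKO 5 was the one apart in 3.78% of all genes and cKO 4 in 2.66%, against 0.668 to 1.33% for cKO 1, 2 and 3. Hltf was at 11.4 CPM in the library labelled cKO 5, against 2.83 to 5.10 CPM in the other cKO libraries. In the same library Jund was at 58.5 CPM (34.9 to 39.8 in the other cKO libraries), Dusp6 at 64.5 CPM (38.0 to 44.5) and Gadd45g at 7.82 CPM (2.25 to 3.59). In cKO 4, Nr4a3 was at 110 CPM, the lowest (135 to 143 in the other cKO libraries), and Sik1 at 4.47 CPM, the highest (2.22 to 2.80).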

How the results depend on the processing

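No member was called under any of the 19 alternatives. Over all genes, the count called higher in cKO, 0 as reported, was 1 with library totals, 2 without a filter, 2 with a filter of CPM at least 1 in 3 libraries, 86 with DESeq2, 3 with limma-voom and 5 over the 6 libraries; the count called lower was 57 with DESeq2, 1 with limma-voom and 5 over the 6 libraries. Leaving out 1 of the 8 libraries left 0 genes called in either direction, and the fit over 6 libraries without WT 1, chosen after seeing the data, called 3 higher and 0 lower. A block for the library number over the 6 libraries left 0 genes called in either direction. Deviations of libraries with the same number from their group means had an r of -0.026, 0.016 and -0.072. With means of only 3 libraries, these r cannot decide whether pools of the same number were paired, and no pairing is stated. Of 912 single-gene comparisons, 840 kept direction and call, 69 changed sign and 3 were called by DESeq2 alone (Rgs2, Dusp26 and Slc17a7). The cause was not tested.

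Log2 fold changes that changed sign were as follows. With limma-voom they were -0.21 for Fosb, -0.02 for Jund, 0.69 for Egr2 and -0.15 for Inhba. Over the 6 libraries they were -0.12 for Fosb, 0.27 for Jun, -0.12 for Jund, 0.23 for Egr2, -0.08 for Egr3, -0.27 for Nr4a1, -0.21 for Dusp1, -0.04 for Sik1, -0.28 for Inhba and -0.27 for Gadd45b. With the block over those libraries they were -0.31 for Fosb, 0.33 for Jun, -0.12 for Jund, 0.60 for Egr2, -0.08 for Egr3, -0.22 for Nr4a1, -0.16 for Dusp1, -0.24 for Inhba and -0.12 for Gadd45b. With DESeq2 the value was 0.00075 for Junb, with library totals -0.01 for Nr4a3 and -0.03 for Inhba, and with upper-quartile scaling -0.0019 for Inhba. With 1 library left out, or over the 6 libraries without WT 1, values ran from -0.08 to 0.41 for Fosb, -0.37 to 0.18 for Jun, -0.18 to 0.20 for Junb, -0.09 to 0.16 for Jund, -0.68 to 0.64 for Egr2, -0.03 to 0.54 for Egr3, -0.04 to 0.78 for Nr4a1, -0.0043 to 0.08 for Nr4a3, -0.30 to 0.04 for Npas4, -0.16 to 0.36 for Dusp1, -0.41 to 0.14 for Dusp6, -0.24 to 0.59 for Sik1, -0.44 to 0.42 for Inhba, -0.07 to 0.25 for Ptgs2, -0.73 to 0.02 for Btg2, -0.11 to 0.78 for Gadd45b, -0.49 to 0.30 for Gadd45g, -0.80 to 0.08 for Ier2, -0.41 to 0.01 for Ier5, -0.04 to 0.52 for Hspa5 and -0.15 to 0.28 for Gad1. The ends 0.64 (Egr2), -0.03 (Egr3), -0.24 (Sik1), 0.02 (Btg2) and 0.08 (Ier2) come from the fit that lacks cKO 4, the library labelled cKO 5 and WT 1; leaving out 1 of the 8 libraries gave -0.68 to 0.25 for Egr2 and no change of sign for the other 4.

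Depth limits Fos, Egr2 and Ier2 (3 to 100 counts per library) and the 3 untested members. The tissue held several cell types, and overlapping genes could not be split by strand.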
